A study of Mus musculus with 36 samples.

Results

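Brain libraries of male mice given CP2 were compared with brain libraries of male mice given vehicle. The comparison rests on 10 of the 36 libraries of the series, chosen by the labels as brain, male and either treatment, with 5 libraries of each treatment. All animals were wild type C57BL/6, so no transgene or deletion was present in either group. The CP2 group drank CP2, described by the labels as an inhibitor of mitochondrial complex I, at 25 mg/kg/day in water holding 0.1% PEG from 21 months of age, and the vehicle group drank 0.1% PEG alone. Both groups were profiled at 26 months. The brain piece was a cross-section that held hippocampus and cortex. RNA was read by poly(A) RNA-seq. The labels do not state that each library is a different animal. Each brain library has its own s number in its title, and some of these numbers recur in fat libraries of the same sex and treatment. Without a statement of the animals, the tests speak of the scatter among libraries, some of which may be technical. Libraries are named below by the s number of their title.

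Complex I takes electrons from NADH and passes them to ubiquinone while it pumps protons across the inner mitochondrial membrane. A partial block of it lowers the supply of electrons to the respiratory chain and can engage AMP-activated protein kinase (AMPK), the cell's sensor of low energy. In a whole piece of brain, RNA comes from neurons of several regions, from glia, from vessels and from the lining of the ventricles. In such bulk samples, fewer cells of a type and less RNA per cell cannot be told apart.

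Depth was similar in both groups, at 44.1 ± 5.13 M (mega) counts in CP2 and 44.6 ± 5.84 M in vehicle libraries (SD, n = 5 each), and 24134 to 25188 genes had at least 1 read. Markers of the labelled regions were present in each library: summed over their list, hippocampal CA field genes stood at 426 to 582 CPM (counts per M counted reads) in CP2 and from 361 CPM upward in vehicle libraries, and deep cortical layer genes at 518 to 594 and 535 to 597 CPM. Genes of regions below the cortex were present as well, with a summed thalamus list of 252 to 465 CPM in CP2 and 322 to 710 CPM in vehicle libraries. A list score here is the mean over a list's measured genes of log2 CPM in 1 library. Vehicle s620 stood apart from its group with low scores for hypothalamus, midbrain and Cajal-Retzius genes. CP2 s581 stood apart with high scores for dentate gyrus, CA fields and blood. The title of each library also carries an L number of unstated meaning, which was 1 or 2 in vehicle libraries, 2 in CP2 s581 and 6 in the other 4 CP2 libraries, so it is nearly tied to treatment.

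Ebf3, an early B cell factor that binds DNA and takes part in the specification of neurons, fell in the CP2 group and was the single gene that passed the test. The gene (ENSMUSG00000010476, protein coding) lies on mm10 chromosome 7 from 137193673 to 137314445. Its promoter, the 250 bases before the gene's start in RefSeq (build GRCm38.p6, minus strand, chr7:137314446-137314695), is shown because Ebf3 carries the one call of the comparison and because Ebf proteins bind DNA themselves. Capitals mark the stretch that holds the inner half-sites of the Ebf motif, CCCNNGGG.

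Ebf3 promoter: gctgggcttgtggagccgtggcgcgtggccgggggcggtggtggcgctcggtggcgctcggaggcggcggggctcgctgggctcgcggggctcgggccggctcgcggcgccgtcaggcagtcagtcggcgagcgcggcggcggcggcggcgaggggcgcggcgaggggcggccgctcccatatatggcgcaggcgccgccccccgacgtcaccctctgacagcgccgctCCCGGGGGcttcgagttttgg

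GC content of this window was 80.0%, against a median of 52.4% over all 32851 promoter windows of that length in the table. The longer form of the motif, TCCCNNGGGA, was not in it. The motifs read the same on both strands and every match of the longer one is also a match of the shorter one. The shorter form was in 3882 windows (11.8%) and the longer one in 256 (0.779%). A match describes the letters alone.

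In the vehicle libraries Ebf3 stood at 7.94 CPM in s622, 10.6 in s601, 7.11 in s551, 4.42 in s620 and 8.59 in s621. In the CP2 libraries it stood at 1.76 CPM in s581, 0.98 in s583, 1.77 in s571, 3.21 in s530 and 1.91 in s612. Each CP2 library was below each vehicle library, and the nearest values were those of CP2 s530 and vehicle s620. The means were 7.74 ± 2.27 and 1.93 ± 0.804 CPM (SD, n = 5 each), a log2 fold change of -2.01 ± 0.31 (SE; edgeR quasi-likelihood test, Benjamini-Hochberg adjusted p = 0.0452). These levels rest on 157 to 475 reads in vehicle and 38 to 125 reads in CP2 libraries. Over all 19316 genes tested the share called was 0.00518%, which is this 1 gene. Leaving out 1 male library at a time gave log2 fold changes of -2.25 to -1.85, and the adjusted p was above 0.05 in 8 of the 10 cases, up to 0.271 without CP2 s612 (0.0188 without s530 and 0.0175 without s620). The female libraries enter the model's estimate of the spread. Without any 1 of them the adjusted p was 0.0598 to 0.099, except 0.0015 without female vehicle s643. The adjusted p was also above 0.05 with the male libraries alone (0.104) and with no filter on low counts (0.254). It was under 0.05 by edgeR with RLE scaling (0.0496) or a stricter filter (0.0437), by DESeq2 (6.97e-07) and by limma-voom (0.00288). DESeq2 called 81 of the 19316 genes and limma-voom 779. With the thalamus list score in the model the log2 fold change was -1.07 with an adjusted p of 1.0, and with the L number as a term it was -1.89 with an adjusted p of 0.531. One L number, 2, holds both groups, so in males any fit with that term compares CP2 s581 with vehicle s620 and s621. There Ebf3 was at 1.76 CPM in CP2 s581 against 4.42 and 8.59 CPM in vehicle s620 and s621.

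The other members of the Ebf family were measured beside it. Ebf2 stood at 5.14, 6.0, 4.36, 3.71 and 3.93 CPM in vehicle s622, s601, s551, s620 and s621, and at 2.34, 1.03, 1.24, 2.54 and 1.96 CPM in CP2 s581, s583, s571, s530 and s612. Its groups did not overlap, as was the case with CP2 lower for 178 genes (0.922%) and with CP2 higher for 94 genes (0.487%) of all tested. The log2 fold change of Ebf2 was -1.35 ± 0.30, which did not pass the test (adjusted p = 0.174). Ebf1 and Ebf4 overlapped between the groups, with log2 fold changes of -0.15 ± 0.14 and -0.09 ± 0.16. Per length, the authors' FPKM means put Ebf3 level with Ebf4 in vehicle libraries (0.597 and 0.574) and below it in CP2 libraries (0.146 and 0.531). Zfp423 and Zfp521, zinc finger proteins that bind Ebf factors, had log2 fold changes of -0.63 ± 0.18 and -0.28 ± 0.13. The score of these 6 genes ran from 2.18 to 2.70 in CP2 and from 2.71 to 3.39 in vehicle libraries, and vehicle s620 and CP2 s530 came closest.

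**Figure D1:**
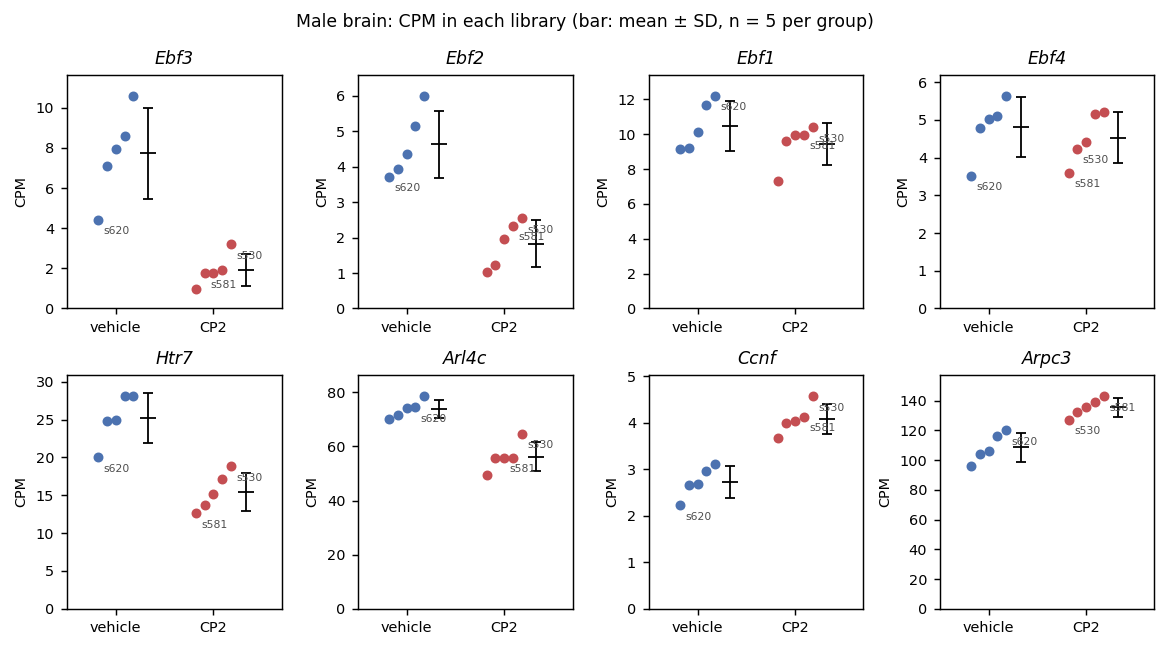
CPM (y axis, from 0) of 8 genes in each of the 5 vehicle (blue) and 5 CP2 (red) male brain libraries, with mean ± SD beside the points and libraries s620, s581 and s530 labelled. Ebf3 and Ebf2 do not overlap between the groups, while Ebf1 and Ebf4 do.

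Beyond Ebf3, no gene passed the adjusted threshold, and the genes with the lowest p on each side are described by their values. On the lower side, the group included signalling genes. Htr7, which encodes a serotonin receptor coupled to cAMP, stood at 24.9, 28.1, 24.8, 20 and 28.1 CPM in the vehicle and 12.6, 13.7, 17.1, 18.8 and 15.2 CPM in the CP2 libraries, in the order used for Ebf2. Its groups did not overlap, and the log2 fold change was -0.70 ± 0.14. Prkar2a, a regulatory subunit of the cAMP-dependent protein kinase, stood at 91.8, 99.6, 92.4, 93.4 and 96.8 CPM against 77.8, 71.0, 74.8, 84.1 and 76.3 CPM. Again each CP2 library was lower, by a log2 mean of -0.30 ± 0.07.

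Arl4c, a small GTPase of the ARF-like group, was at 70.3 to 78.6 CPM in vehicle and 49.5 to 64.6 CPM in CP2 libraries (-0.39 ± 0.08). Eps8, which caps actin filaments and acts in growth factor signalling, was at 40.2 to 51.8 against 32.6 to 36.4 CPM (-0.44 ± 0.09). Etnk2, an ethanolamine kinase of phospholipid synthesis, was at 5.32 to 6.76 against 3.26 to 4.85 CPM (-0.64 ± 0.14). These 3 genes and Lgr6, a receptor for R-spondins (4.06 to 5.95 against 2.55 to 3.72 CPM, -0.68 ± 0.15), did not overlap between the groups. In contrast Arhgap24 (-0.62 ± 0.13), a GTPase-activating protein for Rac, Cdhr2 (-1.25 ± 0.27), a cadherin-related gene, and Gpr64 (-0.93 ± 0.20), an adhesion receptor, overlapped because vehicle s620 lay within the CP2 range. All 9 had an adjusted p of 0.174 by edgeR. Without s620 the adjusted p of each of the 9 was between 0.0175 and 0.0488, in a fit where 156 of 19483 genes (0.801%) passed. These 9 had been chosen for their low p in the same libraries. Promoter windows were found for 7 of the 10 lower genes, Ebf3 included. The shorter Ebf motif was in 2 of the 7 (28.6%), those of Ebf3 and Htr7, against 11.8% of all windows. A set of 7 windows is too small to show a difference from that share.

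The genes with the lowest p on the higher side follow. Ccnf, cyclin F, a substrate receptor of a ubiquitin ligase, stood at 2.69, 2.95, 2.65, 2.22 and 3.11 CPM in vehicle and 4.12, 4.0, 3.67, 4.57 and 4.03 CPM in CP2 libraries, a log2 fold change of 0.58 ± 0.13 (edgeR adjusted p = 0.174). Arpc3, a subunit of the actin-nucleating Arp2/3 complex, stood at 96.3 to 120.0 against 127.0 to 143.0 CPM (0.32 ± 0.08, adjusted p = 0.222). Neither of these genes overlapped between the groups. The same held for Lrrc7, a scaffold of the postsynaptic density (42.0 to 50.3 against 56.3 to 74.9 CPM, 0.46 ± 0.13), for Slc37a4, the glucose-6-phosphate transporter (16.3 to 20.1 against 20.5 to 23.8 CPM, 0.30 ± 0.08), and for Ptcd2, a mitochondrial RNA-binding protein (26.1 to 30.0 against 30.6 to 34.0 CPM, 0.22 ± 0.06). Cttnbp2, a cortactin-binding protein of dendritic spines (0.38 ± 0.09), Slc24a4, a sodium, potassium and calcium exchanger (0.56 ± 0.16), Zfp114 (0.60 ± 0.17) and Yipf1 (0.29 ± 0.08) overlapped. Tmem181b-ps (0.74 ± 0.20), a transcribed pseudogene, is uncertain, because reads can be shared with close copies of it. The adjusted p of these 10 genes was between 0.174 and 0.228. Without s620, Arpc3 and Yipf1 passed (edgeR adjusted p = 0.0472 and 0.0461) and the others of the 10 did not.

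Among all genes tested, 9472 were lower and 9843 higher in CP2 libraries, with a median log2 fold change of 0.004 the 5th percentile at -0.53 and the 95th at 0.37. Without adjustment, 2036 genes had a p under 0.05, against 965.8 if p-values were uniform, and of these 1303 (6.75%) were lower and 733 (3.79%) higher.

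Thalamic marker genes were lower in CP2 libraries for 16 of 16 members, with a median log2 fold change of -0.67. No member passed the test over all genes, and 14 had an unadjusted p under 0.05, a share to be read beside the 6.75% over all genes. Tcf7l2, a transcription factor of thalamic neurons, stood at 37.2, 29.2, 22.4, 8.64 and 42.5 CPM in vehicle s622, s601, s551, s620 and s621 and at 8.72, 6.73, 5.42, 16.0 and 9.52 CPM in CP2 s581, s583, s571, s530 and s612. Vehicle s620 was within the CP2 range and CP2 s530 was the highest of its group, so the groups overlapped (-1.60 ± 0.41, edgeR adjusted p = 0.222).

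The same 2 libraries broke the separation in other members. Slc17a6, the vesicular glutamate transporter of subcortical neurons, was at 77.8 CPM in vehicle s620 and 152.0 to 204.0 CPM in the other vehicle libraries, against 129.0 CPM in CP2 s530 and 34.1 to 85.2 CPM in the other CP2 libraries (-1.23 ± 0.39). Rgs16, a regulator of G protein signalling, was at 9.01 CPM in s620 and 15.4 to 25.6 CPM in the other vehicle libraries, against 8.92 to 13.1 CPM in CP2 libraries (-0.97 ± 0.23). Shox2, a homeobox factor, ranged from 4.31 to 17.9 CPM in vehicle and 0.0258 to 7.23 CPM in CP2 libraries (-2.24 ± 0.89). Further homeobox factors were Gbx2 (-1.55 ± 0.42) and Lhx9 (-1.63 ± 0.57). Smaller differences were seen in Ntng1, a netrin that guides thalamic axons (-0.86 ± 0.26), in Plekhg1 (-0.69 ± 0.22), in Synpo2 (-0.65 ± 0.24), in the receptor partner Ramp3 (-0.63 ± 0.27) and in Amotl1 (-0.54 ± 0.15). The zinc finger genes Zic1 (-0.63 ± 0.28) and Zic4 (-0.60 ± 0.22), the troponin gene Tnnt1 (-0.54 ± 0.25), the protein kinase gene Prkcd (-0.36 ± 0.42) and the Wnt effector Lef1 (-0.34 ± 0.23) complete the list.

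The thalamus score was 4.61, 4.41, 4.09, 3.40 and 4.72 in vehicle and 3.20, 2.80, 3.02, 3.89 and 3.21 in CP2 libraries, in the order used above. It was thus lower in 4 CP2 libraries than in any vehicle library, and CP2 s530 lay above vehicle s620. Without s620 the median of the list was -0.78 and 4 members passed the edgeR test, where 156 of 19483 genes (0.801%) passed in all (Rgs16, Tcf7l2, Gbx2 and Amotl1, with adjusted p of 0.0188 to 0.0428). Vehicle s620 had the lowest vehicle score of this same list. Leaving it out thus widens the group difference by construction, and these passes are not a separate result. Within L number 2 the scores were 3.20 in CP2 s581 against 3.40 and 4.72 in vehicle s620 and s621. All 16 genes had promoter windows in the RefSeq table, 22 in all. The shorter Ebf motif was in 2 of these (9.09%), those of Prkcd and Rgs16, against 11.8% of all windows.

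**Figure D2:**
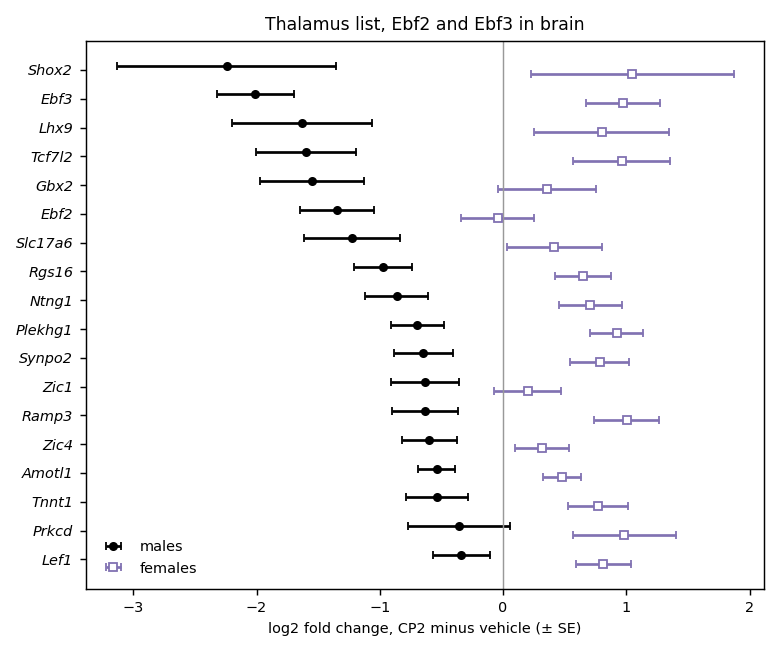
Log2 fold change, CP2 minus vehicle, with SE (x axis) for the 16 thalamus genes, Ebf2 and Ebf3 in male (filled circles) and female (open squares) brain. Each male value lies below 0, and each female value except that of Ebf2 lies above it.

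Hypothalamic genes had the lowest median of the 46 lists described, -1.93, and 23 of 24 measured members were lower, 18 of them at an unadjusted p under 0.05 (6.75% of all genes). None passed the test over all genes. Neuropeptide genes made up much of the list, and several varied widely within a group. Means are given with SD. Pmch, the precursor of melanin-concentrating hormone, was at 104 ± 99.8 CPM in vehicle and 8.05 ± 17.0 CPM in CP2 libraries (-3.71 ± 1.51). The orexin precursor Hcrt was at 4.56 ± 5.14 and 0.62 ± 1.26 CPM (-2.97 ± 1.26). Agrp, the antagonist of melanocortin receptors, was at 2.61 ± 3.75 and 0.374 ± 0.139 CPM (-2.81 ± 0.91). Galanin, Gal, was at 7.29 ± 3.61 and 2.05 ± 1.27 CPM (-1.83 ± 0.47). Ghrh, growth hormone-releasing hormone, was at 0.253 CPM in s620 and 0.652 to 1.97 CPM in the other vehicle libraries, against 0.103 to 0.513 CPM in CP2 libraries (-2.17 ± 0.52). Nr5a1, a nuclear receptor of the ventromedial nucleus, was at 0.0844 CPM in s620 and 1.47 to 3.36 CPM elsewhere in vehicle, against 0.59 CPM in s530 and 0.0258 to 0.0986 CPM elsewhere in CP2 (-3.42 ± 0.81). Gnrh1 was the 1 member that was higher (0.29 ± 0.56).

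The hypothalamus score was 2.48, 2.6, 1.98, -0.82 and 2.56 in vehicle and -0.56, -1.23, -0.49, 1.26 and 0.05 in CP2 libraries. Vehicle s620 lay among the CP2 libraries and CP2 s530 stood between the other CP2 and the other vehicle libraries. Without s620 the median was -2.18 and 9 members passed the test, beside 0.801% of all genes in that fit. Vehicle s620 had the lowest vehicle score of this same list, so leaving it out widens the group difference by construction. These passes are therefore not a separate result. With the thalamus score in the model the median was -0.34, and none passed.

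Genes of neighbouring regions were examined in the same way. Genes of midbrain and subthalamus were lower for 11 of the 12 members measured out of 18 listed (median -0.89). Of these, 5 had an unadjusted p under 0.05 (6.75% of all genes). Among the lower members were Foxb1, a forkhead factor (-1.67 ± 0.53), the monoamine transporter Slc18a2 (-1.23 ± 0.41) and tyrosine hydroxylase, Th (-1.0 ± 0.35). Genes used to mark Cajal-Retzius cells, which line the surface of cortex and hippocampus, were lower for 8 of 9 members (median -1.53), a list that holds Ebf2 and Ebf3. In it Lhx1 (-2.02 ± 0.43), Lhx5 (-1.61 ± 0.46), Nhlh2 (-1.53 ± 0.48) and calretinin, Calb2 (-1.59 ± 0.40), had a mean in CP2 libraries well under that in vehicle libraries, but Reln, the secreted protein that defines these cells, was at 99.8 CPM in vehicle and 108 CPM in CP2 libraries (0.11 ± 0.16), and Trp73 (-0.05 ± 0.25) and Ndnf (-0.09 ± 0.18) were also near 0. For the habenula, which adjoins the thalamus, 4 of 7 members were lower, with a median of -0.07 that turned to 0.13 without s620. Its members of lowest p were Chrna3, a nicotinic receptor subunit (-0.92 ± 0.30), and the tachykinin gene Tac2 (-0.57 ± 0.31). The part of the libraries' regional makeup in these differences, and in that of Ebf3, was not tested. In the covariate fits it cannot be told apart from treatment, because the thalamus score itself differed with treatment. In males it was 2.80 to 3.89 in CP2 and 3.40 to 4.72 in vehicle libraries.

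Ependymal genes, used to mark the ciliated cells that line the ventricles, had a median of -0.72. All 10 were lower, 8 of them at an unadjusted p under 0.05 (6.75% of all genes). Ccdc153 stood at 18.1, 17.3, 5.85, 8.78 and 11.8 CPM in vehicle and 9.39, 3.15, 7.83, 7.36 and 4.33 CPM in CP2 libraries (-0.95 ± 0.33), and the groups overlapped. So did those of Rsph1, a protein of ciliary radial spokes (-0.60 ± 0.23). The scores, 1.86 to 3.27 in vehicle and 1.12 to 2.54 in CP2 libraries, overlapped widely. Choroid plexus genes, from the same ventricles, had a median of 0.04, with a score of 0.22 to 4.36 in CP2 and 1.24 to 4.17 in vehicle libraries. With the L number as a term, which sets s581 alone against s620 and s621, the ependymal median was 0.09.

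Striatal genes, which mark the medium spiny neurons, had a median of 0.47. They were higher for 20 of 20 members, and 5 had an unadjusted p under 0.05, a share to be set beside 3.79% over all genes. The striatum score was 7.38 in CP2 s583 and 7.12 in CP2 s571, against 6.13 to 6.63 in the other CP2 and 6.04 to 6.66 in vehicle libraries, so 2 libraries carried the difference. Gng7, a G protein subunit, showed it at 647.0 and 499.0 CPM in s583 and s571, 254.0 to 369.0 CPM in the other CP2 and 238.0 to 333.0 CPM in vehicle libraries (0.57 ± 0.25), and so did Rarb, a retinoic acid receptor (0.60 ± 0.25). With the thalamus score in the model the median of the list was -0.26, and Gng7 and Rarb were at -0.18 and -0.13.

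**Figure D3:**
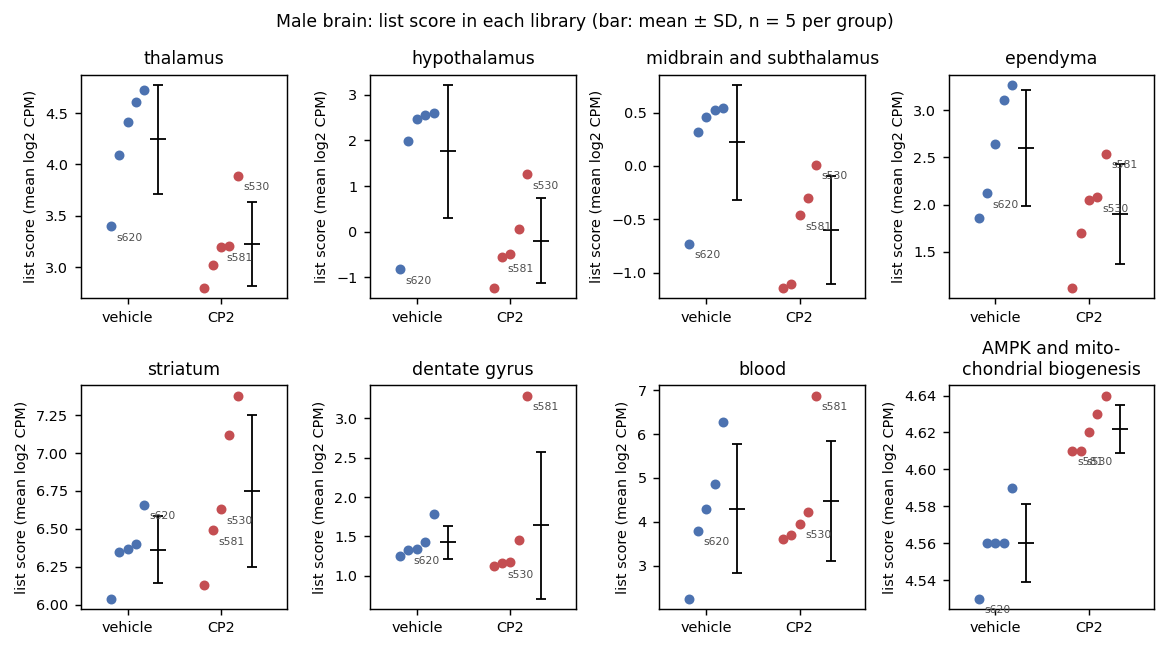
List score (y axis, mean log2 CPM of a list's genes) of 8 lists in each male brain library, vehicle in blue and CP2 in red, with mean ± SD and libraries s620, s581 and s530 labelled. Vehicle s620 lies low for thalamus, hypothalamus and midbrain, CP2 s581 lies high for dentate gyrus, and the groups separate for the AMPK list, whose axis spans about 0.1.

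In the labelled regions themselves, genes of 1 list differed in sign. Upper cortical layer genes had a median of -0.09, with the nuclear receptor Rorb at -0.26 ± 0.10, and deep layer genes of 0.10, with the zinc finger gene Tshz2 at -0.48 ± 0.13. Rspo1, a secreted Wnt enhancer, was at 7.62 to 9.89 CPM in vehicle and 5.81 to 6.7 CPM in CP2 libraries (-0.49 ± 0.15), and Parm1, a mucin-like membrane protein, was at 86.1 to 102.0 against 69.8 to 77.6 CPM (-0.35 ± 0.09). Both were without overlap between the groups, and neither passed the test (edgeR adjusted p = 0.285 and 0.224). Hippocampal CA genes were higher for 11 of 13 members (median 0.23, and 0.13 to 0.33 without 1 library). Their score was 4.64 in CP2 s581, against 3.77 to 3.99 in the other CP2 and 3.73 to 3.94 in vehicle libraries. In this list Amigo2, an adhesion protein of field CA2, was lower (-0.81 ± 0.26). Rgs14, a regulator of G protein signalling of the same field, was higher (0.49 ± 0.20), and neither passed the test. Rgs14 was at 61.9 CPM in CP2 s581, 33.8 to 42.5 CPM in the other CP2 and 21.5 to 35.9 CPM in vehicle libraries. Dentate gyrus genes were higher for 5 of 7 members (median 0.36), with Trpc6, a cation channel, at 0.36 ± 0.13 and Lct at 3.26 ± 1.1, the latter from 16.4 CPM in CP2 s581 against 0.197 to 0.638 CPM in the other CP2 libraries. CP2 s581 alone had a dentate score of 3.29, against 1.13 to 1.46 in the other CP2 and 1.25 to 1.78 in vehicle libraries, and without s581 the dentate median was -0.25. Eomes, a T-box factor of newborn neurons, was at 1.74 to 3.8 CPM in vehicle and 0.181 to 1.54 CPM in CP2 libraries (-1.76 ± 0.54, adjusted p = 0.279).

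Glial and vascular lists differed little. Myelin genes were lower for 20 of 20 members by a median of -0.12. Tspan2, a tetraspanin of oligodendrocytes, was the 1 member with an unadjusted p under 0.05 (-0.39 ± 0.13), to be read beside 6.75% of all genes. Without 1 library the myelin median ran from -0.23 to -0.06, and with the L number as a term, again s581 against s620 and s621, it was 0.12. Medians were -0.07 for astrocytes, 0.05 for oligodendrocyte precursors, 0.07 for homeostatic microglia, -0.05 for disease-associated microglia and 0.09 for endothelium and pericytes. The blood list was higher for 5 of 5 members (median 0.26), with Hbb-bs, a haemoglobin chain, at 422.0 CPM in CP2 s581 and 283.0 CPM in vehicle s622, and 19.6 to 104.0 CPM in the other 8 libraries. Without s581 the blood median was -0.95. Prl, the pituitary hormone prolactin, was at 39.5 CPM in CP2 s530 and at most 0.85 CPM in the other male libraries.

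Genes of the target of CP2 were close to their vehicle levels. Of the 36 nuclear subunits of complex I, 25 were higher and 11 lower, with a median of 0.04, a range of -0.15 to 0.30 and none at an unadjusted p under 0.05. The sign of these small differences varied with the fit. Without vehicle s620, 32 were higher (median 0.10), and with the thalamus score in the model 23 were lower (median -0.02). With the L number as a term, s581 against s620 and s621, the median was -0.09. Ndufs1, which carries iron-sulfur clusters of the NADH-oxidising arm, had means of 258 CPM in vehicle and 279 CPM in CP2 libraries (0.11 ± 0.10), and Ndufv1, which holds the FMN site, of 133 and 148 CPM (0.15 ± 0.09). Ndufb6, a subunit of the membrane arm, was the lowest (-0.15 ± 0.08). The 37 genes of the mitochondrial genome have no reads in the deposited table, so the subunits encoded there were not compared. Assembly factors of complex I had 8 of 14 members higher (median 0.02), complexes II to V 25 of 33 (median 0.04) and the tricarboxylic acid cycle 16 of 22 (median 0.04). In that order the medians were 0.05, 0.12 and 0.10 without s620, and 0.01, -0.02 and 0.0 with the thalamus score in the model.

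In the glycolysis list 19 of 22 genes were higher, and the median was 0.10. Pfkp, the platelet form of phosphofructokinase, was at 240.0 to 273.0 CPM in vehicle and 271.0 to 316.0 CPM in CP2 libraries (0.21 ± 0.09), and Ldhb, the lactate dehydrogenase chain of aerobic tissue, at 486.0 to 598.0 against 554.0 to 653.0 CPM (0.19 ± 0.08). These groups overlapped, and neither gene passed the test.

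The list of AMPK subunits and regulators of mitochondrial biogenesis had a median of 0.04, with 14 of 22 members higher, yet its score separated the groups: it was 4.61, 4.63, 4.62, 4.61 and 4.64 in CP2 s581, s583, s571, s530 and s612 and 4.56, 4.56, 4.59, 4.53 and 4.56 in vehicle libraries. This and the Ebf list were the 2 of 46 lists whose scores did not overlap. The Ebf list holds Ebf3 and Ebf2, which did not overlap themselves, so its separation is not a separate result. Of all single genes tested, 0.922% did not overlap with CP2 lower and 0.487% with CP2 higher, but a score that averages many genes is not a like measure. The nearest AMPK scores were 4.61 in CP2 s581 and s530 and 4.59 in vehicle s551. The AMPK list median was 0.02 with the thalamus score in the model. With the L number as a term, s581 against s620 and s621, it was -0.02. Polg, the polymerase of mitochondrial DNA, had the lowest p in the AMPK list. It was at 31.3 to 42.2 CPM in vehicle and 39.4 to 53.0 CPM in CP2 libraries (0.31 ± 0.10, edgeR adjusted p = 0.286). The coactivator Ppargc1a (-0.02 ± 0.08) and the kinase subunit Prkaa1 (-0.14 ± 0.08) were near vehicle or below it, as was Tfam, which packs mitochondrial DNA (-0.12 ± 0.09).

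Stress and ageing lists had medians near 0. The integrated and mitochondrial stress response had a median of 0.02, with Atf4 at 0.02 ± 0.06 and Ddit3 at 0.18 ± 0.12. Psph, which completes serine synthesis, was at 15.5 to 18.3 CPM in vehicle and 18.9 to 22.0 CPM in CP2 libraries (0.22 ± 0.11), the 1 listed gene of 725 tested that was higher without overlap (0.487% of all genes), where 5 listed genes were lower without overlap (0.922% of all genes). Medians were 0.04 for heat shock proteins, -0.03 for antioxidant defence, -0.04 for mitochondrial dynamics and mitophagy, -0.02 for lysosome and autophagy, 0.01 for cell cycle arrest and senescence, 0.05 for the circadian clock and 0.02 for amyloid and tau. Optn, a receptor of mitophagy, was at 23.8 to 30.3 CPM in vehicle and 19.0 to 25.5 CPM in CP2 libraries (-0.39 ± 0.11). Ccng2, a cyclin gene induced by FoxO factors, was at 38.6 to 55.9 against 49.1 to 63.7 CPM (0.31 ± 0.09) in an insulin, IGF and FoxO list whose median was 0.09.

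Inflammatory genes were mixed. Interferon response genes were lower for 15 of 19 members (median -0.15), with Ifit3 at 98.2 CPM in vehicle s622, 34.3 to 59.1 CPM in the other vehicle and 30.1 to 39.2 CPM in CP2 libraries (-0.62 ± 0.23), and Oasl2 at 34.0 CPM in s622, 8.1 to 23.0 CPM in the other vehicle and 10.9 to 15 CPM in CP2 libraries (-0.68 ± 0.25). Without vehicle s622 the interferon median turned to 0.02. The complement and antigen presentation list had a median of -0.10, with C3 at -0.71 ± 0.34. Its median turned to 0.16 without vehicle s622 and to 0.03 without CP2 s530, and C3 was at -0.01 with the thalamus score in the model. With the L number as a term both medians were above 0 (0.40 and 0.59). Cytokine and NF-kB genes had a median of 0.10, and cholesterol synthesis genes had a median of -0.11, with 15 of 16 lower and none at an unadjusted p under 0.05.

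In the excitatory synapse list 19 of 24 genes were higher, and the median was 0.21. Camk2a, the kinase of synaptic plasticity, had means of 1600 CPM in vehicle and 2050 CPM in CP2 libraries (0.36 ± 0.14), and the AMPA receptor subunit Gria2 was at 514.0 to 746.0 against 625.0 to 980.0 CPM (0.35 ± 0.12). The NMDA receptor subunit Grin3a had the opposite sign, at 55.6 to 90.9 against 50.1 to 66.7 CPM (-0.41 ± 0.14). Inhibitory synapse genes had a median of 0.02 and interneuron genes of -0.00, with Dlx1, a homeobox factor of these cells, at -0.45 ± 0.14. With the thalamus score in the model the median of the excitatory list was -0.01.

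**Figure D4:**
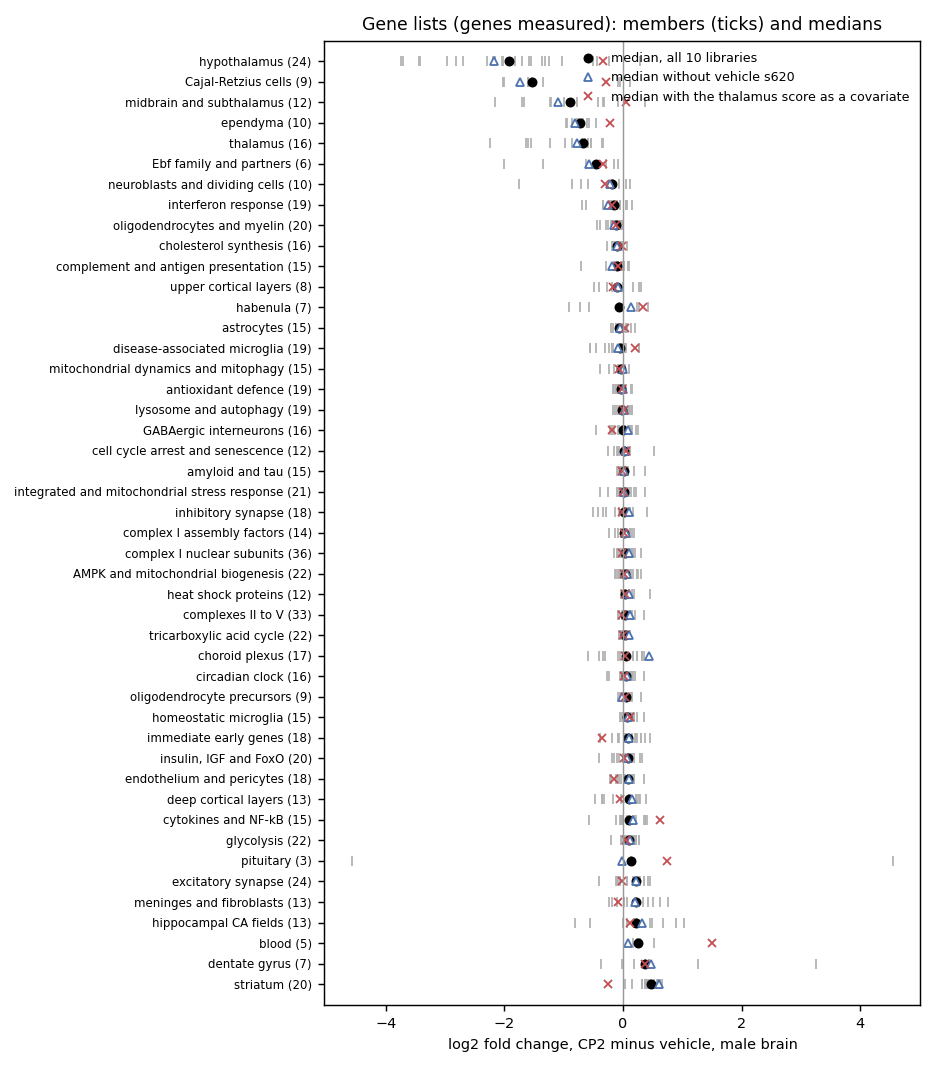
Log2 fold change, CP2 minus vehicle (x axis), of each measured gene (grey ticks) of the 46 lists, with the list median over all 10 libraries (filled circles), without vehicle s620 (triangles) and with the thalamus score as a covariate (crosses, not drawn for thalamus). Medians run from -1.93 for hypothalamus to 0.47 for striatum, and the covariate brings both nearer to or past 0.

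The male comparison was set against the female one, from 5 CP2 and 5 vehicle brain libraries of females in the same model, with no library in common. The difference between the sexes was called for 1 gene, Ebf3 (0.00518% of 19316). That difference reuses the male libraries in which Ebf3 was called, so it is not a separate finding. The log2 fold change of Ebf3 in females exceeded that in males by 2.98 ± 0.44 (edgeR adjusted p = 0.0162). Leaving out 1 library at a time gave a difference of 2.76 to 3.22, and the adjusted p was above 0.05, up to 0.0609, in 5 of 20 cases (without male s571, s612 or s621, or female s492 or s641). The adjusted p was under 0.05 by edgeR with RLE scaling (0.0184) or the stricter filter (0.0158), by DESeq2 (6.12e-08) and by limma-voom (0.00132). DESeq2 called 685 of the 19316 genes and limma-voom 2013. By edgeR it was 0.051 with no filter on low counts, 0.329 with the L number as a term and 0.823 with the thalamus score, where the difference was 1.33. In females it stood at 1.2 to 4.91 CPM in vehicle and 5.09 to 9.41 CPM in CP2 libraries, the opposite order to males and likewise without overlap, but the female comparison by itself did not pass the test (0.97 ± 0.30, edgeR adjusted p = 0.341). The difference for Ebf2 was 1.30 ± 0.42 (adjusted p = 0.124). For Htr7 it was 0.88 ± 0.20 (0.0566), for Arl4c 0.56 ± 0.12 (0.0505) and for Ccnf -0.87 ± 0.18 (0.0505), and none of these passed. The thalamus list was higher with CP2 in females for 16 of 16 members (median 0.77), and the female value exceeded the male one for each of them, by a median of 1.59, where the median over all genes was 0.002. The striatum list had a female median of -0.94 and the hypothalamus list of 0.55. Female vehicle s643 stood apart from its group, with a thalamus score of 2.95 (others 3.97 to 4.92), a hypothalamus score of -0.34 (1.73 to 2.3) and a striatum score of 7.19 (5.61 to 6.58). Without it the female medians were 0.60 for thalamus, with 16 of 16 members higher, 0.32 for hypothalamus and -0.62 for striatum. Without male vehicle s620 the count of genes whose difference between the sexes passed the test was 809 (4.15%).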

How the data were processed

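Counts and FPKM values were deposited by the authors for each of 36 libraries, and the 20 brain libraries entered the model. Per the labels' protocols, libraries were made from 200 ng of RNA with a TruSeq v2 kit, which does not mark strand, and read as pairs of 101 bp. Reads on genes that overlap on opposite strands, or on close copies of a gene, therefore cannot be told apart. Per the submitters' processing notes, STAR 2.6.1c, featureCounts and build mm10 were used. The sources used here do not give the annotation release or filters. The FPKM values deposited by the authors matched count over length within 0.212% for 99% of values with at least 100 reads and served only to compare levels between genes. The members and gene lists were chosen with earlier results of these data known.

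Raw counts of 20 brain libraries were fitted with edgeR 4.0.16 (R 4.3.3) as 4 groups of sex and treatment, after filterByExpr and TMM scaling, with the robust quasi-likelihood test. The fit had 16 residual degrees of freedom and a biological coefficient of variation of 0.170, and was tested on simulated data. P-values were adjusted by Benjamini-Hochberg over 19316 genes, at a threshold of 0.05. CPM values use TMM-scaled library sizes. Male libraries held 37.4 to 53.0 M (mega) counts. Genes were named from a rule: every gene called, the 10 genes of lowest p on each side with a mean of at least 1 CPM and a gene symbol that is not a predicted gene, the 2 of lowest p in each list, the 4 Ebf genes and all thalamus genes. Of the 2 per list, those of the lists described at most length are printed, and other list members named were chosen after their values were seen. All 741 listed symbols were found and 725 listed genes were tested. Alternatives were RLE scaling, DESeq2, limma-voom 3.58.1, other filters, male libraries alone, the L number, the thalamus score and leaving out each library. Promoter windows came from RefSeq (GRCm38.p6). They held 7 of the 10 lower named genes.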

Additional observations from a re-analysis of the deposited data

Results flagged for a closer look

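A library was marked where it stood apart from the other 4 of its group beyond Dixon's limit for 5 values (0.71 of the range). Of 344 groups of gene or list values examined, 32 were marked, and chance marks about 1 in 20. Their values are given without an explanation, and the cause was not tested.

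CP2 s581 was high for Lct at 16.4 CPM, Cldn5 at 29.9, Alas2 at 48.0, Hbb-bs at 422.0, Icam1 at 8.92, Nfkb2 at 3.52 and Txnip at 73.6 CPM. Its scores were high for CA fields (4.64, others 3.77 to 3.99), dentate gyrus (3.29), disease-associated microglia (5.18, others 4.57 to 4.66), blood (6.88, others 3.61 to 4.22) and amyloid and tau (6.98). CP2 s530 was high for Rgs16 at 13.1, Synpo2 at 21.9, Nr5a1 at 0.59, Prl at 39.5, Cga at 0.128 and Prkaa1 at 51.5 CPM, and for the pituitary score (0.03, others -3.89 to -3.01). CP2 s612 was low for Ebf1 at 7.31 CPM and CP2 s583 for Ndufb6 at 31.6 CPM.

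Vehicle s620 was low for the scores of hypothalamus (-0.82, others 1.98 to 2.6), midbrain and subthalamus (-0.73, others 0.32 to 0.54), Cajal-Retzius cells (1.75, others 2.81 to 3.23), the Ebf list (2.71, others 3.21 to 3.39) and the insulin, IGF and FoxO list (5.86), and high for Ndufb6 at 47.9 CPM. Vehicle s621 was high for Ndufv1 at 150.0 CPM and for the glycolysis score (7.95). Vehicle s601 was high for Cga at 3.02 CPM and low for the CA field score (3.73), and vehicle s622 was high for Bmp4 at 2.41 CPM.

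The CP2 effect on Ebf3 differed between the sexes by 2.98 on the log2 scale, female minus male, by a test of the difference itself (edgeR adjusted p = 0.0162).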

How the results depend on the processing

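The count of 1 gene called in males was 1 with RLE scaling and with the stricter filter, 81 with DESeq2 (9 higher, 72 lower), 779 with limma-voom and quality weights (196 of them higher), 6 with the L number as a term (all higher, and all highest in CP2 s581), and 0 with no filter, with the male libraries alone and with the thalamus score. Without 1 brain library it ran from 0 to 156. The 156 (16 higher, 140 lower) came without vehicle s620, and 2 without CP2 s530. For the difference between the sexes the count of 1 became 685 with DESeq2, 2013 with limma-voom, 125 with the stricter filter, 2 with the L number and 0 with no filter or the thalamus score, and ran from 0 to 809 without 1 library. It was 236 without CP2 s581, 211 without CP2 s530, 356 without female vehicle s640 and 58 without female CP2 s491. The cause was not tested. No paired analysis was possible because the CP2 and vehicle groups share no s number, which was taken as the replicate number. The L number has its own fit above.

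The direction turned for Alas2 (-0.134), Hbb-bs (-0.249) and Prl (-1.91) with limma-voom. Without 1 library the log2 fold change ran from -0.914 to 1.27 for Alas2, -7.78 to 0.422 for Cga, -0.020 to 0.290 for Esam, -0.909 to 1.05 for Hbb-bs, -0.016 to 0.532 for Icam1, -0.007 to 3.57 for Lct, -3.72 to 5.28 for Prl and -0.263 to 0.018 for Tap1. With the thalamus score the direction turned for 20 of the 126 named genes, among them Gng7 and Rarb. Of the 20, 9 were thalamus list genes, such as Lhx9, Synpo2 and Prkcd. The mean of that list is the score, so their turn follows from how the fit is made. With the L number the direction turned for 15, among them Oasl2, Rsph1 and Txnip. Under the remaining settings, and these 2 for the genes of lowest p, 1808 results on named genes kept direction and side of the threshold, 95 newly passed it and 11 no longer did. Depth limits genes such as Nr5a1 and Ghrh, measured at 0.0258 to 0.59 and 0.103 to 0.513 CPM in CP2 libraries.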
